A study of Homo sapiens with 6 samples.

Results

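The zinc finger genes of human chromosome 19 were examined in RNA-sequencing data from DU145, an established prostate cancer cell line. Members were all protein-coding genes of chromosome 19 in the deposited table whose symbol is ZNF followed by a number, whatever their change. This gave 158 of the 10542 genes listed. GENCODE 29 annotates 249 such genes, and the other 91 were not analysed here. DU145-TFEB cells had received a lentivirus for overexpression of the transcription factor TFEB, and DU145-vector cells had received the blank vector virus. Both were stable lines that had been selected with puromycin, per the study's methods, and each group had 3 libraries of polyA RNA. Neither the promoter of the transgene nor the number of clones is given in the labels. They do not state whether the libraries of a group came from separate cultures, so p-values measure the spread between libraries, which may be technical.

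A C2H2 zinc finger is a short loop of protein held by a zinc ion between a pair of cysteines and a pair of histidines, and a row of such fingers reads a stretch of DNA. Many of the genes on chromosome 19 arose by repeated tandem duplication and carry a KRAB box before the fingers. The KRAB box recruits TRIM28 (KAP1), which brings histone methylation, HP1 proteins and deacetylases to the bound DNA, and many of these proteins silence transposable elements. Others lack the box, and some of these belong to older families.

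The finger is repeated along most of these genes, and the GC content of its codons differs among the groups of members described below. A finger with its linker is therefore shown for 3 members whose level was lower. It is also shown for 1 KRAB gene and 2 genes without a KRAB box whose level was higher. The unit taken was the first finger that is followed at once by another of the same spacing. Any finger before it was passed over. Capitals mark the codons of the cysteines and histidines that hold the zinc. Each unit is 84 bases of coding sequence in GRCh38, read 5′ to 3′ along the gene from the exons and coding regions of GENCODE 29.
ZNF180: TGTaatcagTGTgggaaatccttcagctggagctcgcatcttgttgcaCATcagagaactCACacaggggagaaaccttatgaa
ZNF160: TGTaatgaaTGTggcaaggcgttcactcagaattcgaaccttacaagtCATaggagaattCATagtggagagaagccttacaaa
ZNF780A: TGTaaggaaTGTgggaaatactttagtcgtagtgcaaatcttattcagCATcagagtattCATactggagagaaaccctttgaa
ZNF85: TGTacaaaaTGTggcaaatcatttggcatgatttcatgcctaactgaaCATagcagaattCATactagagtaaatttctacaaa
ZNF524: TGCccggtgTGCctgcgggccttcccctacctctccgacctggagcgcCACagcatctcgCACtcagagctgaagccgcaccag
ZNF787: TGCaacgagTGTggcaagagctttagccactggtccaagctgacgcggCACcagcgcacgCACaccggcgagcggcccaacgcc

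The units of ZNF180 (chr19:44477335-44477418, exon 5 of 5), ZNF160 (chr19:53069676-53069759, exon 7 of 7) and ZNF780A (chr19:40075860-40075943, exon 6 of 6) lie on the minus strand. Those of ZNF85 (chr19:20949040-20949123, exon 4 of 4) and ZNF524 (chr19:55602458-55602541, exon 1 of 1) lie on the plus strand, and that of ZNF787 (chr19:56088887-56088970, exon 3 of 3) on the minus strand. All 6 lie within the last exon of the transcript used, as did the first unit of 148 of the 154 members in which one was found. No unit with its linker was found in ZNF576, ZNF428, ZNF414 and ZNF653. In ZNF428 and ZNF414 only 1 finger was counted, so no unit was possible there. At the third base of each codon, G or C filled 42.9% of the positions in the unit of ZNF180, 39.3% in ZNF160, 25% in ZNF780A and 25% in ZNF85. In ZNF524 it was 96.4% and in ZNF787 92.9%.

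A KRAB box was found in 134 members by a search of the translated coding sequences, and 24 had no match. A stricter pattern matched 79, and a box that has diverged can be missed by either. The KRAB members had a median of 13 fingers (range 5 to 29) and the members without a match a median of 9 (range 1 to 20). Median transcript GC content was 42.1% over the members and 48.2% over all listed genes.

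The values are normalized counts, in which the authors divided the reads of each gene by 1 size factor per library. Reads on the listed genes came to between 13999961 and 16511477 per library. TFEB itself rose from 125 ± 1.82 to 6221 ± 161 normalized counts (SD, n = 3 libraries in each group), a log2 fold change of 5.62. Of 6 epithelial markers of the labelled cell type, the keratins KRT8, KRT18 and KRT19 were listed, with a summed normalized count of 21600 to 30600 in DU145-TFEB and 36400 to 41800 in DU145-vector. None of 4 fibroblast, 3 immune and 2 endothelial markers was listed. The part of these values in the results was not tested.

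Most zinc finger genes of chromosome 19 were lower in DU145-TFEB. On the log2(normalized count + 1) scale, 143 of 158 members were lower and 15 were higher with an adjusted p-value below 0.05 (limma with a mean-variance trend, Benjamini-Hochberg over all listed genes). Of all listed genes 52.4% were lower and 47.6% higher by this rule. The median log2 fold change was -1.27 over the members (quartiles -1.67 and -0.85, range -2.49 to 1.51) and -0.36 over all listed genes. The median of the members' group means was 182 normalized counts in DU145-vector and 67.8 in DU145-TFEB. Over all listed genes these medians were 604 and 446. The table lists only genes for which the authors obtained an adjusted p-value under 0.05 in these same libraries, so a pass for every member was fixed by that selection. For the same reason, the groups did not overlap in 158 of 158 members, against 99.3% of all listed genes.

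Differentially expressed genes (DEGs) had to pass 0.05 on the adjusted p-value and 1.5 on the log2 fold change in either direction. By both cutoffs 57 members were lower DEGs (36.1%), against 16.5% of all listed genes. A single member, ZNF428, was a higher DEG (0.633%), against 2.54% of all listed genes. In 111 members (70.3%) the mean in DU145-TFEB was under 0.5 of that in DU145-vector, against 31.1% of all listed genes.

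The difference was present in every library. Reads on the members numbered 19855, 21521 and 21299 in DU145-TFEB and 37662, 40817 and 36143 in DU145-vector. They made up 0.142%, 0.130% and 0.151% of the reads on listed genes in DU145-TFEB and 0.255%, 0.279% and 0.254% in DU145-vector. In this bulk RNA, less RNA per cell and fewer cells that express a gene cannot be told apart. Within DU145-TFEB, the second library had the lowest value for 94 of 158 members and the third the highest for 101. Within DU145-vector the second library had the highest value for 99.

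With the deposited scaling, the members with a KRAB box moved almost entirely one way. Of 134, 132 were lower (98.5%, against 52.4% of all listed genes) and 2 were higher. Their median log2 fold change was -1.30, and 52 were lower DEGs (38.8%), against 16.5% of all listed genes. The 2 that were higher were ZNF101 and ZNF85, named here after their values were seen. Of the 24 members without a KRAB match 13 were higher and 11 lower. These separated by GC content. All 13 with a transcript GC content of 50% or more were higher (median 0.52, median GC 65.2%), and all 11 below 50% were lower (median -1.36, median GC 40.5%). The 2 KRAB members at or above 50% GC were lower, ZNF565 at -1.16 and ZNF274 at -0.29. The 13 higher members without a KRAB match were ZNF358, ZNF414, ZNF653, ZNF526, ZNF576, ZNF428, ZNF579, ZNF524, ZNF865, ZNF580, ZNF581, ZNF787 and ZNF444. In the first finger unit, G or C filled a median of 35.7% of the third positions of codons in KRAB members and 89.3% in the 9 higher members without a match that had a unit. It was 39.3% in the 11 members without a match under 50% GC, near the KRAB members. The members without a match were split here by GC content itself.

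Fold change moved with GC content across all listed genes, so it is given beside that of genes with like composition. Spearman's rho of log2 fold change with transcript GC was 0.74 over 10537 listed genes, 0.44 over the 158 members and 0.28 over the 134 KRAB members. Genes of a library share its preparation and are not independent. Between 35 and 40% GC, the 41 members had a median log2 fold change of -1.41 and the 1546 other listed genes -1.42. Between 40 and 45% GC, the 74 members had -1.44 and 2294 others -1.10, and between 45 and 50%, 27 members had -0.99 and 1585 others -0.60. From 50% GC upwards the bins held few members. At 50 to 55%, 3 members had -0.29 and 1351 others 0.45, and at 55 to 60%, 2 members had 0.42 and 1591 others 0.57. At 60 to 65%, 3 members had 0.67 and 1365 others 0.65. At 65 to 70%, 5 members had 0.76 and 438 others 0.68, and at 70 to 75%, 2 members had 0.5 and 48 others 0.86. The part of GC content in the lower values was not tested.

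**Figure D1:**
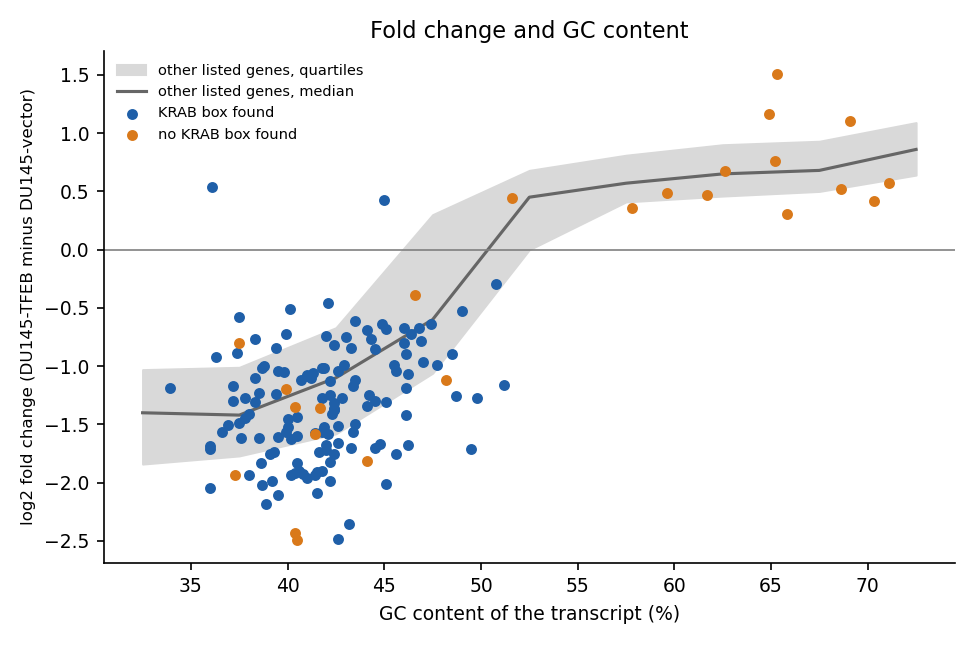
Log2 fold change (DU145-TFEB minus DU145-vector) of each of the 158 zinc finger genes against the GC content of its transcript in percent. Blue points have a KRAB box and orange points no match. The grey line and band give the median and quartiles of the other listed genes in steps of 5% GC. Most blue points lie below 0 between 35 and 50% GC, ZNF85 and ZNF101 stand above them, and the 13 orange points at 50% GC or more lie above 0.

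With the trend against GC content and gene length removed from each library, the median of the members was -0.28 and that of all listed genes 0.01. Of the members, 117 were then lower and 41 higher, of which 61 lower and 19 higher passed an adjusted p-value of 0.05 (limma). That is 38.6% and 12% of the members, against 28.3% lower and 31.8% higher of all listed genes. On this scale 3 members were lower DEGs (1.9%) and 1 was a higher DEG (0.633%), against 2.45% and 2.7% of all listed genes, so DEGs were no more frequent among the members than in the whole table. The lower were ZNF132 at -1.68, ZNF30 at -1.53 and ZNF350 at -1.51, and the higher was ZNF85 at 1.82. ZNF132 is named here after its values were seen. By KRAB status, 99 of the 134 KRAB members were lower on this scale and 35 higher (median -0.30). Of the 24 members without a match, 18 were lower and 6 higher (median -0.14). Of the 11 of these under 50% GC, 9 were lower and 2 higher (median -0.55). Among all listed genes 5206 were lower and 5331 higher.

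**Figure D2:**
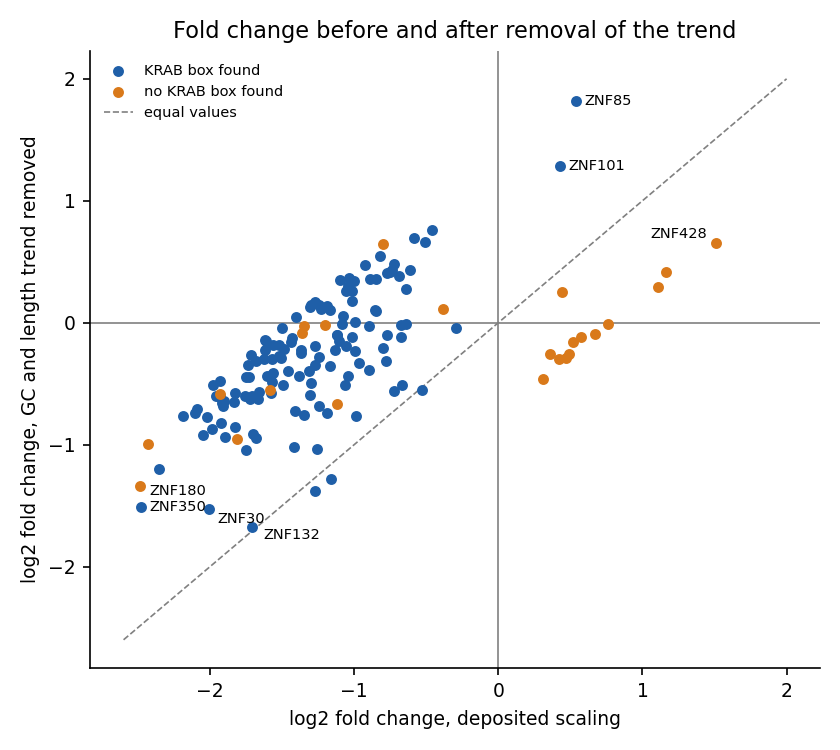
Log2 fold change of the 158 zinc finger genes with the deposited scaling (horizontal) and after removal of the GC and length trend (vertical), with KRAB members in blue, members without a match in orange and a dashed line at equal values. Most blue points lie between the dashed line and 0, while ZNF85 and ZNF101 lie above the line on the right.

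The largest decreases among members with a mean of at least 50 normalized counts were found in ZNF180, ZNF507, ZNF160, ZNF780A, ZNF283, ZNF585A, ZNF615, ZNF30, ZNF235 and ZNF468. ZNF180 (ENSG00000167384, chr19:44474428-44500524, minus strand) has 12 fingers. It measured 56.8, 35.5 and 47.8 normalized counts in DU145-TFEB and 268, 334 and 201 in DU145-vector. Its highest DU145-TFEB library lay far below its lowest DU145-vector library, and its mean was 5.73-fold lower (log2 fold change -2.49, SE 0.23, limma adjusted p = 1.15e-05).

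ZNF507 has been linked to neurodevelopment and has no KRAB match. It measured 286, 178 and 388 normalized counts in DU145-TFEB and 1395, 1577 and 1427 in DU145-vector. All DU145-TFEB libraries lay far below, and its mean was 5.16-fold lower (log2 fold change -2.43, SE 0.23, limma adjusted p = 1.28e-05). ZNF160, a KRAB gene with 20 fingers that has been described as a repressor of TLR4, measured 73.7, 40.0 and 83.1 against 307, 327 and 342. Its groups were separated by a wide gap (log2 fold change -2.36, SE 0.25, limma adjusted p = 2.06e-05). ZNF780A measured 63.1, 45.5 and 77.9 against 248, 339 and 261 (log2 fold change -2.19, SE 0.21, limma adjusted p = 1.5e-05). In ZNF507, ZNF160 and ZNF780A the second DU145-TFEB library was the lowest and the third the highest.

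The other 6 ranged in log2 fold change from -2.10 in ZNF283 to -1.98 in ZNF468. ZNF585A went from 130 ± 13.8 to 31.1 ± 11.3 normalized counts, ZNF615 from 106 ± 14.8 to 27.7 ± 15.8 and ZNF235 from 107 ± 24.8 to 27.5 ± 11.1 (SD, n = 3 libraries). Their lowest libraries held 14 to 21 reads, and their spread in DU145-TFEB was wide relative to the mean. ZNF30 kept most of its decrease with the trend removed, at -1.53 against -2.01 before. Exons on the opposite strand cover 23.3% of the exon length of ZNF235. ZNF468 lies on exons that overlap those of ZNF320 on the same strand over 53.3% of its length, so its reads may not all be its own.

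The largest increases were smaller. ZNF428 (ENSG00000131116, chr19:43607219-43619874, minus strand), a short protein with 1 finger, measured 125, 130 and 115 normalized counts in DU145-TFEB and 44.1, 32.2 and 55.0 in DU145-vector. Every DU145-TFEB library had more than 2 times the count of any DU145-vector library (log2 fold change 1.51, SE 0.21, limma adjusted p = 0.000126). It stood just past the fold-change cutoff, and no member was a higher DEG without the first or second DU145-TFEB or the second DU145-vector library, with a pseudocount of 5, with scaling to library totals, or with edgeR or DESeq2 on the reads. Exons of another gene on the opposite strand cover 27.6% of its exon length, and the strand setting of the counting is not stated.

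ZNF524, which has been described as a telomere-binding protein, measured 133, 151 and 147 normalized counts against 58.8, 61.4 and 71.0. ZNF358 measured 709, 703 and 641 against 370.5, 276 and 311, with exons of another gene on the same strand over 20.2% of its exon length and 80.5% of its words of 50 bases unique. Both were more than 2-fold higher, with log2 fold changes of 1.162 (SE 0.16, limma adjusted p = 8.79e-05) and 1.11 (SE 0.12, limma adjusted p = 2.86e-05). The other higher members of this ranking were ZNF653, ZNF414, ZNF865, ZNF85, ZNF444, ZNF581 and ZNF580, at 0.76 to 0.47. With the trend removed, ZNF653, ZNF414, ZNF865 and ZNF444 had values of -0.01 to -0.16 that did not pass the test (limma adjusted p = 0.976 to 0.0954), and ZNF581 and ZNF580 were lower at -0.26 and -0.29 (limma adjusted p = 0.0211 and 0.0101). ZNF428, ZNF524 and ZNF358 stayed higher at 0.65, 0.42 and 0.29.

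ZNF85 and ZNF101, the KRAB members with higher values, lie in 1 cluster of genes, chr19:19668796-21852125. ZNF85, with 15 fingers, measured 177, 152 and 186 normalized counts in DU145-TFEB and 99, 136 and 121 in DU145-vector (log2 fold change 0.54, SE 0.16, limma adjusted p = 0.00933). The lowest DU145-TFEB library was above the highest DU145-vector library by less than the spread within DU145-vector. ZNF101, with 9 fingers, measured 208, 210 and 198 against 148, 164 and 146 (log2 fold change 0.43, SE 0.12, limma adjusted p = 0.00706). Their transcripts have a GC content of 36.1% and 45.0%, in the range where other members were lower, and with the trend removed their log2 fold changes were 1.82 and 1.28 (limma adjusted p = 1.33e-06 and 6e-06).

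**Figure D3:**
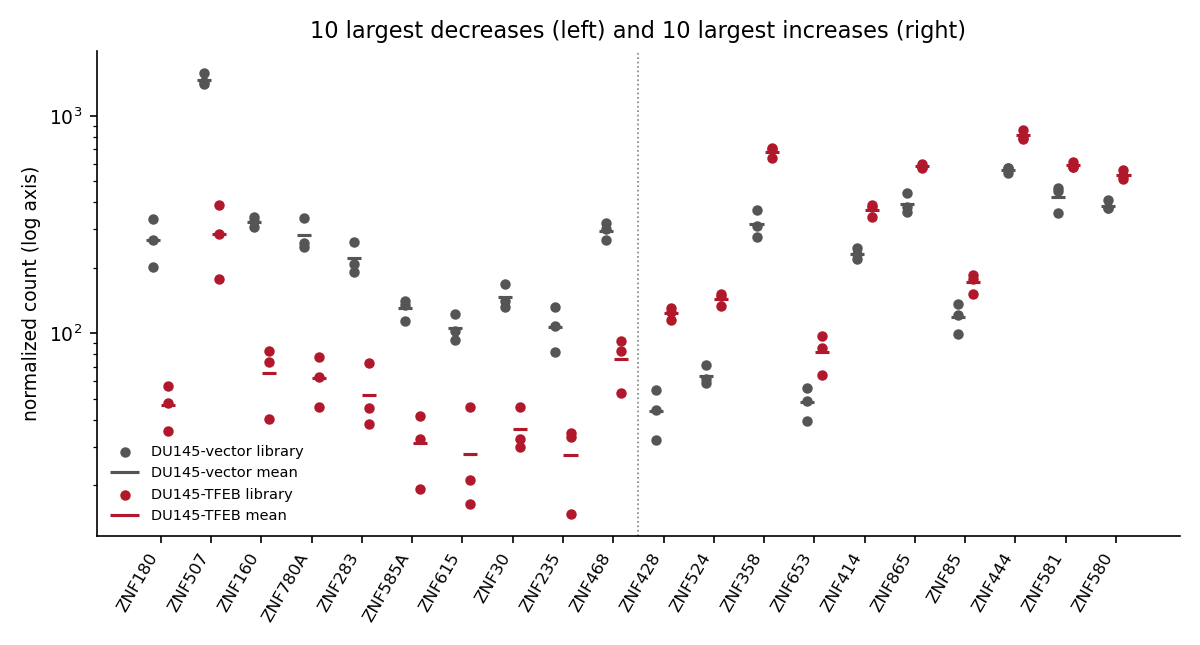
Normalized counts on a log axis for the 10 largest decreases (left) and the 10 largest increases (right) in the 3 DU145-vector libraries (grey) and the 3 DU145-TFEB libraries (red). Points are libraries and short lines are group means. The groups are further apart on the left, where ZNF180 goes from a mean of 267 to 46.7, than on the right, where ZNF580 goes from 386 to 536.

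Along the chromosome, a gap of over 1 Mb between starts divided the members into 7 clusters of at least 4 genes and 13 scattered genes. The 91 annotated genes that were not listed were left out, so gaps and scattered genes depend in part on which genes were listed. Every cluster had a negative median. The cluster of 32 genes from ZNF175 to ZNF331 had the lowest (-1.61), with 32 of 32 lower and 19 lower DEGs (59.4%). In the cluster of 24 genes from ZNF565 to ZNF573 the median was -1.5, with 24 of 24 lower and 12 lower DEGs (50%). Of all members 90.5% were lower and 36.1% were lower DEGs, against 52.4% and 16.5% of all listed genes. Median transcript GC was 41% and 39.4% in these clusters, against 42.1% over all members. The 20 genes from ZNF576 to ZNF180 had a median of -1.30 and held both ZNF180 and ZNF428, the lowest and the highest member. Medians were -1.17 in the 9 genes from ZNF653 to ZNF791, -1.05 in the 11 from ZNF101 to ZNF43, -0.99 in the 39 from ZNF579 to ZNF132 and -0.90 in the 10 from ZNF358 to ZNF562. In the cluster from ZNF579 to ZNF132, its 7 higher members (ZNF579, ZNF524, ZNF865, ZNF580, ZNF581, ZNF787 and ZNF444) were the first 7 by position. With the trend removed, the order of the clusters changed. The lowest median was then -0.47, in the cluster from ZNF576 to ZNF180. It was -0.42 in the cluster from ZNF175 to ZNF331 and -0.23 in that from ZNF565 to ZNF573. The cluster from ZNF101 to ZNF43 had a median of 0.26, and the others lay between -0.36 and -0.02.

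**Figure D4:**
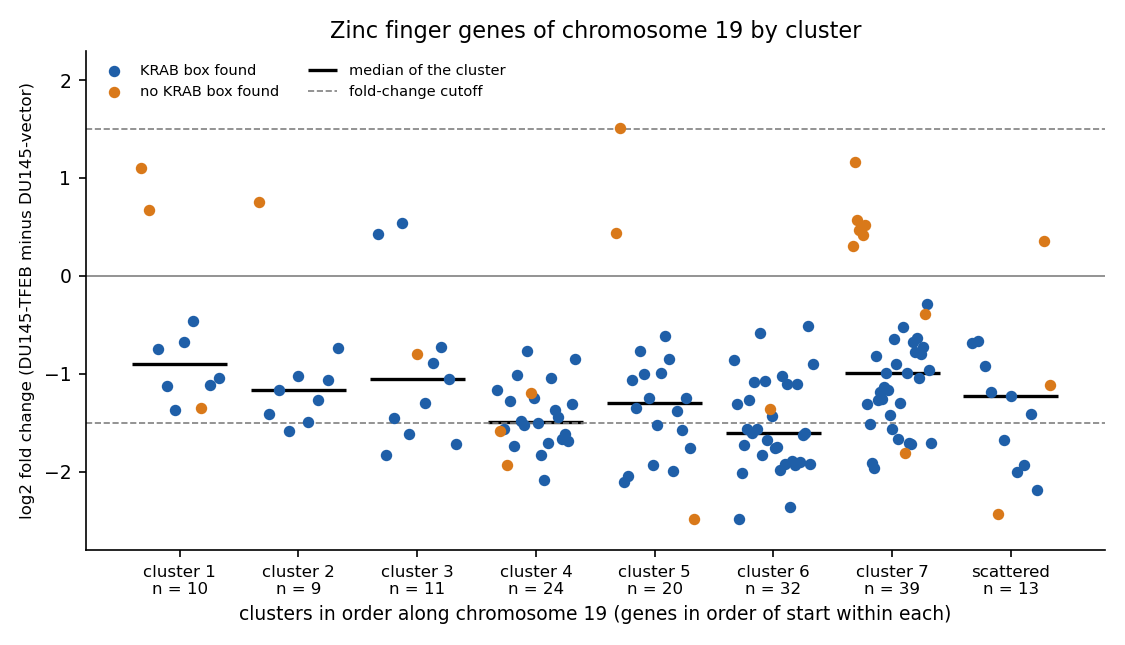
Log2 fold change of each zinc finger gene by cluster, in order along chromosome 19 and in order of start within a cluster. Blue points have a KRAB box, orange points no match, black lines are cluster medians and dashed lines the fold-change cutoff of 1.5. All genes of clusters 4 and 6 lie below 0, and the 7 genes at the start of cluster 7 lie above 0.

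Other protein-coding genes that start within the clusters often went the other way. In the span from ZNF358 to ZNF562 23 of 24 were higher (median 0.92, median GC 62.4%), and in the span from ZNF579 to ZNF132 6 of 10 were higher (median 0.32). In the span from ZNF565 to ZNF573, the 3 neighbours were all lower (median -1.30, median GC 38.6%). Over the whole chromosome, the 611 other protein-coding genes listed had a median log2 fold change of 0.72, with 587 higher and 24 lower and a median GC content of 61.5%. The 162 listed protein-coding ZNF genes of other chromosomes had a median of -1.21, with 124 lower and 38 higher and 49 lower DEGs (30.2%). With the trend removed, these medians were 0.09 and -0.25, against -0.28 in the members. None of these differences was tested.

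The most abundant member of each cluster was taken per kb of gene length, by the mean over the libraries of both groups. ZNF146 (OZF), a protein made up almost wholly of zinc fingers, was the highest, at 577 normalized counts per kb in DU145-vector and 193 in DU145-TFEB. It measured 789, 696 and 916 normalized counts in DU145-TFEB and 2301, 2737 and 2144 in DU145-vector, with a gap of more than 2-fold between the groups (log2 fold change -1.58, SE 0.12, limma adjusted p = 5.43e-06). ZNF787 was at 255 per kb in DU145-vector and 343 in DU145-TFEB, so that the order of these genes changed between the groups. ZNF791, ZNF714 and ZNF83 were each the most abundant of their cluster by this mean. They were at 43.5, 43.6 and 84.8 per kb in DU145-vector and 26.3, 24.8 and 33.7 in DU145-TFEB. In DU145-TFEB alone, ZNF85 (36.75 per kb) and ZNF101 (31.34) were above ZNF714, and ZNF331 (40.36) was above ZNF83. ZNF791 and ZNF714 were lower by the deposited scaling (log2 fold change -0.74 and -0.80) and higher with the trend removed (0.43 and 0.65). ZNF576 was higher at 0.44. In DU145-vector alone, ZNF45 of the same cluster (107.7 per kb) was above ZNF576 (85.49).

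Of 22 members with a role described elsewhere, 16 were in the table, of which 12 were lower and 4 higher. Of the 16, 8 were lower DEGs (50%), against 36.1% of all members and 16.5% of all listed genes. This list was written from general knowledge with earlier results known, and the difference was not tested. ZNF274, a KRAB protein that binds the ends of zinc finger genes themselves, measured 537, 541 and 484 normalized counts in DU145-TFEB and 681, 629 and 602 in DU145-vector. The groups were close, and its log2 fold change of -0.29 was the smallest decrease of all members (SE 0.10, limma adjusted p = 0.0132). It was positive with quantile normalization (0.13) and with each library centred on the median of the listed genes (0.14), where it did not pass the test (limma adjusted p = 0.265 and 0.26).

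Among members tied to growth control, ZNF420 (Apak), a negative regulator of p53, measured 56.8, 40.0 and 69.6 normalized counts in DU145-TFEB and 189, 211 and 187 in DU145-vector. ZNF382, a tumour suppressor candidate, measured 84.2, 54.6 and 107 against 234, 272 and 294. In both, the DU145-TFEB libraries lay well below (log2 fold change -1.83 and -1.74, limma adjusted p = 3.18e-05 and 8.46e-05). ZNF350 (ZBRK1), a partner of BRCA1, measured 2.104, 5.46 and 7.27 against 33.3, 41.0 and 19. With as few as 2 reads in a library, its log2 fold change of -2.48 had the wide SE of 0.44. ZNF224 went from 118 ± 1.27 to 31.8 ± 11.0, but exons on the opposite strand cover 40.5% of its exon length. ZNF304, which has been linked to silencing in cells with mutant RAS, was lower at -1.26, and at -1.04 with the trend removed.

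ZNF568, whose mouse counterpart is known as a repressor of placental Igf2, was lower at -1.504, and ZNF331, an imprinted gene, at -0.90. ZNF675 (TIZ), an inhibitor of TRAF6 signalling, was lower at -0.93 by the deposited scaling and higher at 0.47 with the trend removed. ZNF765 and ZNF43 were lower, at -1.61 and -1.71. With the trend removed ZNF568, ZNF331, ZNF765 and ZNF43 did not pass the test (-0.04, -0.03, -0.15 and -0.27, limma adjusted p = 0.329 to 0.86). ZNF444, a SCAN domain factor without a KRAB match, measured 786, 857 and 792 normalized counts against 548, 574 and 575 and was higher by 0.52. ZNF580 and ZNF581, neighbours whose exons overlap, were higher by 0.47 and 0.49.

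The proteins through which KRAB zinc fingers repress were examined as a list of 33 genes, of which 25 were in the table. Of these 11 were higher and 14 lower (56%), and 4 were lower DEGs (16%), close to the shares of all listed genes. TRIM28, the co-repressor that binds the KRAB box, measured 8077, 9209 and 7648 normalized counts in DU145-TFEB and 6609, 6168 and 7075 in DU145-vector. Its groups did not overlap, with a log2 fold change of 0.33 (SE 0.09, limma adjusted p = 0.00481), but its direction reversed to -0.42 with the trend removed. SETDB1 was not analysed here.

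The 4 lower DEGs of the list were FAM208A (TASOR, of the HUSH silencing complex), SMARCAD1 (a chromatin remodeller that binds TRIM28), CBX5 (HP1 alpha) and ATF7IP (the partner of SETDB1). FAM208A measured 545, 360 and 749 normalized counts against 2368, 2534 and 2254, and CBX5 1916, 1414 and 2492 against 7190, 6533 and 6828. Both stayed lower with the trend removed, at -0.77 and -0.49 against -2.17 and -1.86 before. The largest increases were in GATAD2A (0.87), MBD3 (0.82) and HDAC1 (0.59), which are subunits of the NuRD deacetylase complex. Listed subunits of this complex went both ways. MTA1, CHD3 and MTA2 were also higher (0.51, 0.29 and 0.265). HDAC2, RBBP4, GATAD2B, MBD2 and RBBP7 were lower (-1.01, -0.93, -0.36, -0.27 and -0.2), and all of these were higher with the trend removed (0.30 to 0.43). On that scale MBD3 did not pass the test (0.13, limma adjusted p = 0.125), and MTA1 and MTA2 were lower (-0.19 and -0.22).

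**Figure D5:**
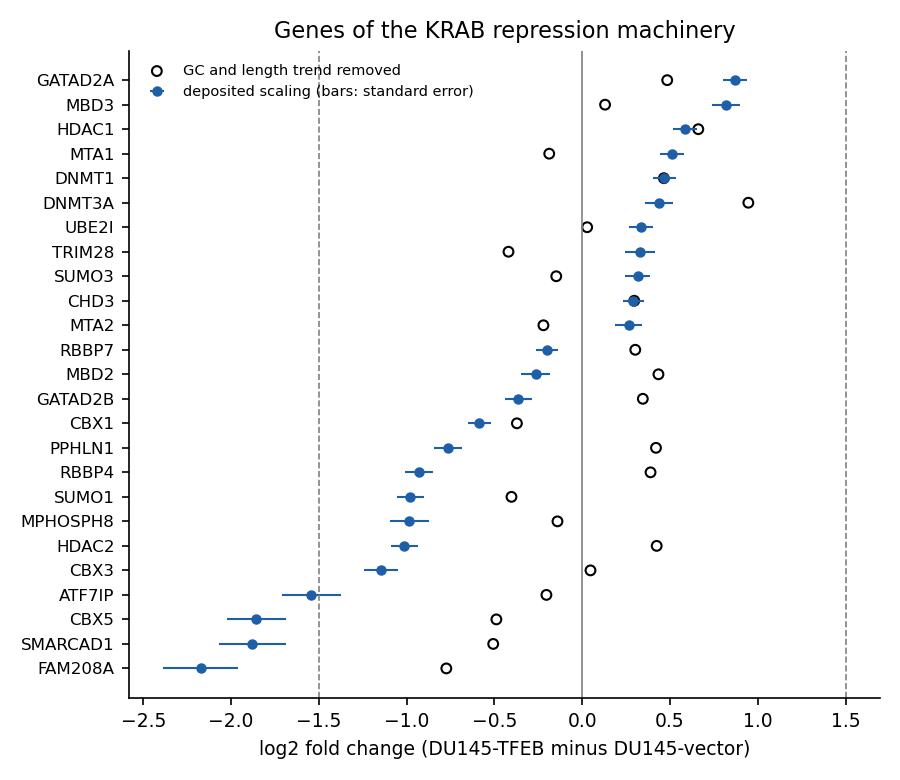
Log2 fold change of the 25 listed genes of the KRAB repression machinery, with the deposited scaling (blue points, bars are standard errors) and with the GC and length trend removed (open circles). Dashed lines mark the fold-change cutoff of 1.5. FAM208A is lowest at -2.17 and GATAD2A highest at 0.87, and most open circles lie nearer to 0 than the blue points.

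Zinc finger genes are near copies of each other, which limits how well reads can be assigned. By words of 50 bases, the transcripts of 123 members were at least 90% unique among all annotated transcripts and 35 were less so. The median log2 fold change was -1.30 in the 123, of which 111 were lower and 48 lower DEGs, and -1.10 in the 35. For comparison, 90.5% of all members and 52.4% of all listed genes were lower. Lower DEGs made up 36.1% and 16.5%. ZNF320 shared 93.3% of its words with ZNF468, and only 0.5% were unique. ZNF799 shared 31.8% with ZNF443, and ZNF417 shared 37.7% with ZNF587. The values of these genes are uncertain. Over 20% of the exon length overlapped exons of another gene on the opposite strand in 5 members and on the same strand in 4.

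TFEB binds a motif with the core CACGTG, a palindrome that reads the same on both strands. RefSeq promoters (250 bases before to 50 after the start, GRCh38.p14) were matched by symbol for 143 members, and 5 held CACGTG (3.5%), against 2030 of 27305 promoters (7.4%). The 5 were ZNF507, ZNF565, ZNF460, ZNF587B and ZNF587, at -2.43, -1.16, -1.19, -0.78 and -0.64. All were lower, as were 90.5% of all members, so this does not set them apart. A match of these letters does not show binding.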

How the data were processed

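DU145-TFEB and DU145-vector were assigned from the sample labels. The submitters' processing notes name CASAVA 1.8, HISAT2 2.1.0, edgeR and GRCh38, and the study's methods name DESeq2. The counter, annotation and strand setting are not given in the sources used here. Positions of all 158 members equal GENCODE 29. The authors deposited a normalized signal, counts divided by 1 size factor per library (0.95 to 1.099), with group means, fold changes and p-values, which were not used except to check that each deposited adjusted p-value was below 0.05 (highest 0.0499).

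log2(normalized count + 1) was tested with limma 3.58.1 (trend, R 4.3.3) over all 10542 genes. The groups entered without a block. Reads were recovered (100% whole within 0.01) for edgeR 4.0.16 and DESeq2 1.42.0. GC trends were removed by loess (span 0.5) over 10537 genes. Scripts were tested on simulated data with 200 changed genes. Replicates differed beyond sampling noise (chi-square per gene 2.96 to 26.6 within groups, 163 to 324 between). An exact two-sided permutation p cannot go below 0.1 with 3 libraries per group.

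Members and lists were chosen with earlier results of these data known. Named were the 10 largest decreases and increases (mean of at least 50, groups not overlapping) and members with a described role. The most abundant member per kb of each cluster, by the mean over both groups, was also named. So were TRIM28, SETDB1 and the 3 highest and 3 lowest machinery genes. The KRAB pattern was widened after sequences, but not expression, were seen. Alternatives covered pseudocounts, filters, scalings, tools, the block, cutoffs, uniqueness and left-out libraries. In 6 members some library had under 10 reads (lowest 1).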

Additional observations from a re-analysis of the deposited data

How the results depend on the processing

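The direction of the median held under every alternative run. Lower DEGs among the members numbered 57 and higher DEGs 1 in the main analysis. Lower DEGs fell to 29 with DESeq2 size factors, 22 with quantile normalization, 13 with each library centred on the median of the listed genes (chosen after seeing the data), and 3 with the length and GC trend removed, with or without the replicate block. As shares these were 18.4%, 13.9%, 8.23% and 1.9% of the members, against 10.5%, 7.66%, 6.55% and 2.45% (2.4% with the block) of all listed genes, so the excess over the table shrank and was absent with the trend removed. They numbered 108 at a log2 cutoff of 1, where the share of all listed genes was not computed. By adjusted p alone they numbered 143 (90.5%), against 52.4% of all listed genes. Higher DEGs numbered 0 with a pseudocount of 5, library totals, edgeR or DESeq2, 2 with quantile normalization and 3 when centred. They numbered 3 at a cutoff of 1 and 15 by adjusted p alone. Of all listed genes, 2.54% were higher DEGs in the main analysis and 47.6% were higher by adjusted p alone. Leaving out each library gave 41 to 68 lower and 0 to 1 higher DEGs. The lower DEGs were then 25.9% to 43% of the members, against 12.2% to 19.4% of all listed genes. The median of -1.27 moved to -1.03 with DESeq2 size factors, -0.94 with quantile normalization, -0.83 when centred and -0.28 with the trend removed, with or without the block. The median of all listed genes moved too, from -0.36 to -0.12, -0.03, 0.08 and 0.01, so that the members lay 0.92, 0.91, 0.92 and 0.28 below it. The causes were not tested.

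The cluster from ZNF358 had a median of -1.06 with a gap of 2 Mb. With the trend removed, with or without the block, the sign changed in ZNF653 (-0.008), ZNF414 (-0.096), ZNF865 (-0.117) and ZNF444 (-0.16), which did not pass the test, and in ZNF581 (-0.26), ZNF580 (-0.289), ZNF787 (-0.296), TRIM28 (-0.42), ZNF791 (0.432), ZNF675 (0.472) and ZNF714 (0.647). That of ZNF274 changed with quantile normalization (0.128) and when centred (0.144), where it did not pass either. Of 854 comparisons over 45 named genes, 810 kept direction and side of the threshold. Same-numbered libraries did not deviate together (correlations -0.02, -0.25 and -0.14), and with the replicate block there were 57 lower DEGs and a median of -1.27. For members with few reads, counting error limits the values.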

Other observations

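Among the 134 KRAB members, Spearman's rho between log2 fold change and the number of fingers was -0.22, and -0.18 with the trend removed. Over the 158 members it was -0.29 with gene length, 0.21 with mean level and -0.03 with the share of unique words. These are descriptions across genes that share libraries and, in part, sequence. ZNF473, which is known as a subunit of the U7 particle that processes histone transcripts, had no KRAB match and measured 139, 142 and 128 normalized counts in DU145-TFEB and 286, 322 and 282 in DU145-vector (log2 fold change -1.12, limma adjusted p = 2.7e-05). It is named here after its values were seen.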
